A study of Mus musculus with 12 samples.

Results

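The genes described here encode the receptors through which myeloid growth factors act on bone marrow cells. They are Csf1r (the M-CSF receptor), Csf2ra (the ligand-binding α chain of the GM-CSF receptor), Csf2rb (the signaling β chain shared by the GM-CSF, IL-3 and IL-5 receptors), Csf2rb2 (the second mouse β chain, which serves the IL-3 receptor), Csf3r (the G-CSF receptor), Flt3 (the receptor of FLT3 ligand) and Kit (the receptor of stem cell factor). The genes were chosen by name, and all 7 of them were found among the 41709 genes of each table. The study asked how β2 integrins shape dendritic cells (DCs). It sequenced poly(A) RNA of bone marrow cells that had been grown for 10 days with GM-CSF and then enriched for MHC class II.

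The 12 libraries fall into 4 groups of 3. All mice carried 2 floxed alleles of Itgb2, which encodes CD18, the shared β chain of the β2 integrins. CD18fl/fl mice without Cre served as controls, and in the conditional knockout (cKO, labelled CD18ΔCD11c) Cre was driven by the CD11c promoter. CD11c itself appears in the course of GM-CSF culture, and Cre could therefore act only in cells that had switched on this promoter. Cultures of either genotype were left unstimulated or received 100 ng/mL lipopolysaccharide (LPS), a bacterial ligand of TLR4, for 24 h as the labels give it. The ages of the mice and the origin of the replicates in separate animals are not stated in the labels, so that p-values measure only the spread between these samples.

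As background, the receptors fall into 2 structural families. GM-CSF, IL-3, IL-5 and G-CSF bind cytokine receptors without kinase activity of their own, which signal by means of JAK2 and STAT5 or STAT3, whereas CSF1R, FLT3 and KIT are receptor tyrosine kinases of class III. KIT and FLT3 are known from progenitors and KIT from mast cells, CSF1R from monocytes and macrophages, and CSF3R from neutrophils, while GM-CSF is the factor on which these DC cultures depend.

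The libraries held 29689149 to 34037178 gene reads, and the count of 3 reads taken as the floor of detection corresponded to 0.0752 to 0.135 CPM (counts scaled to a common library size with TMM factors). Itgb2 amounted to 379 to 420 CPM in unstimulated CD18fl/fl cells and to 120 to 189 CPM in unstimulated cKO cells. With LPS, Itgb2 ranged from 167 to 267 CPM in CD18fl/fl and from 89.7 to 119 CPM in cKO cells, so that the groups did not overlap in either state. These reads were counted over the whole gene, whereas Cre removes exon 3 only, so they do not measure the extent of the deletion. Without accounting for the replicate number, edgeR gave Itgb2 an adjusted p of 0.0887 (unstimulated) and 0.428 (LPS) for the genotypes, and 0.00392 and 0.0201 once replicate numbers entered as a block. All 10 DC markers listed (Itgax, the MHC class II genes, Cd74, Ciita, Zbtb46, Dpp4, Ccr7 and Cd83) exceeded 1 CPM in every library, as did at least 9 of 10 macrophage markers. Replicate 3 stood apart from replicates 1 and 2 in each of the 4 groups, which is given below with each gene it touched.

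Csf2rb and Csf2rb2 lie next to each other on chromosome 15 and arose by duplication, and their transcripts are shown first, because reads of one may be assigned to the other. Their coding sequences of 2691 and 2637 bases (GENCODE, GRCm39) were identical at 95.3% of the 2629 aligned positions. The longest identical run spanned 242 bases, which exceeds the read length of 59 bases. The first 120 coding bases of either gene, with the mismatched positions in capitals, illustrate how few bases tell the transcripts apart:
Csf2rb: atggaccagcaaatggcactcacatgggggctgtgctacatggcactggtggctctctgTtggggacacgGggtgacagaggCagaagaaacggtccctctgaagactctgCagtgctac
Csf2rb2: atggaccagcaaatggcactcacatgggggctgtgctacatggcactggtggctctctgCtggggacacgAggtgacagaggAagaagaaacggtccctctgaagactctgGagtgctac
These stretches differed at 4 positions. Of all 59-base windows of the Csf2rb transcript, 15.4% occurred without mismatch in the Csf2rb2 transcript as well. As deposited, 97.2% to 98.4% of the reads of either gene were nevertheless recorded as unique, and how the reads from shared stretches were divided was not tested. The values of both genes are therefore uncertain relative to each other, and results of their sum are given beside them.

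Promoters were available from RefSeq (table of build GRCm38.p6) for Csf2ra, Csf2rb2, Csf3r, Flt3 and Kit, 5 of the 7 genes. The 250 bases before the start were searched on both strands for GAGGAA, the core bound by PU.1, and for TTGCNNAA, a motif of C/EBP factors, since both families of factors are known regulators of myeloid receptor genes. The promoters of Csf2ra and Csf2rb2 are printed, because the transcripts of these genes deviated together across replicates. Csf2rb deviated with them but had no promoter available, and a part of these motifs in the shared deviation was not tested. The Csf2rb2 stretch (GRCm39 chr15:78189922-78190171, minus strand) lies directly before the gene, with a PU.1 core in capitals on the strand opposite to transcription:
Csf2rb2 promoter: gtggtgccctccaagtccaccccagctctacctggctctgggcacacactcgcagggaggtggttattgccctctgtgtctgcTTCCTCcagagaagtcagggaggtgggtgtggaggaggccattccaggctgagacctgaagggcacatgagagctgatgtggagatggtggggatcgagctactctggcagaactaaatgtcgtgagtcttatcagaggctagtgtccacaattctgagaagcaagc
The Csf2ra stretch (GRCm39 chr19:61216893-61217106, minus strand) is the part of the RefSeq window outside the GENCODE gene, and it held no match:
Csf2ra promoter: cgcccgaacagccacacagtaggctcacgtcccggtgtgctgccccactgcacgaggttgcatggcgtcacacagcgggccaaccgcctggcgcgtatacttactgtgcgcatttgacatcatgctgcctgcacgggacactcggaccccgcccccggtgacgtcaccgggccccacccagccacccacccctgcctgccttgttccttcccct
Within the last 24 bases before the RefSeq start, Csf2ra carried 2 PU.1 cores in tandem, shown in capitals:
Csf2ra start site: acctgcagatGAGGAAGAGGAAgc
The RefSeq windows of Csf3r and Kit each held 1 PU.1 core as well, 86 and 223 bases before the RefSeq start, whereas that of Flt3 held none. The Csf3r window (GRCm39 chr4:125918202-125918451) runs past the GENCODE start of the gene at 125918262. Its core therefore lies inside the annotated gene, while the Kit core lies before its gene. None of the 5 promoters contained the C/EBP motif. Among all 27025 promoters searched, 23.1% held a PU.1 core and 9.55% the C/EBP motif within the same length, and a match describes letters only.

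Per length, the β chain Csf2rb was the most abundant receptor transcript in each of the 4 groups. In unstimulated CD18fl/fl cells Csf2rb reached 175 reads per kilobase of exon at CPM scale (RPKM, mean of n = 3), followed by Csf1r with 78.1, Csf2rb2 with 71.3 and Csf2ra with 54.2 RPKM. The ranges of the latter 3 genes overlapped, so that their order was not resolved. Flt3 (5.84), Kit (3.79) and Csf3r (2.56 RPKM) formed a lower tier that did not overlap with Csf2ra, and whose members overlapped with each other. With LPS, Csf1r ranked below both Csf2rb2 and Csf2ra in CD18fl/fl cells, with 17.9 RPKM against 27.8 RPKM for Csf2ra and 72.1 RPKM for Csf2rb2, although the ranges of Csf1r and Csf2ra overlapped. In cKO cells Csf1r had the lowest mean of the upper 4 genes in both states, with 38.5 RPKM unstimulated and 9.93 RPKM after LPS. In either state the 4 upper genes remained above the 3 lower ones in every group.

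**Figure D1:**
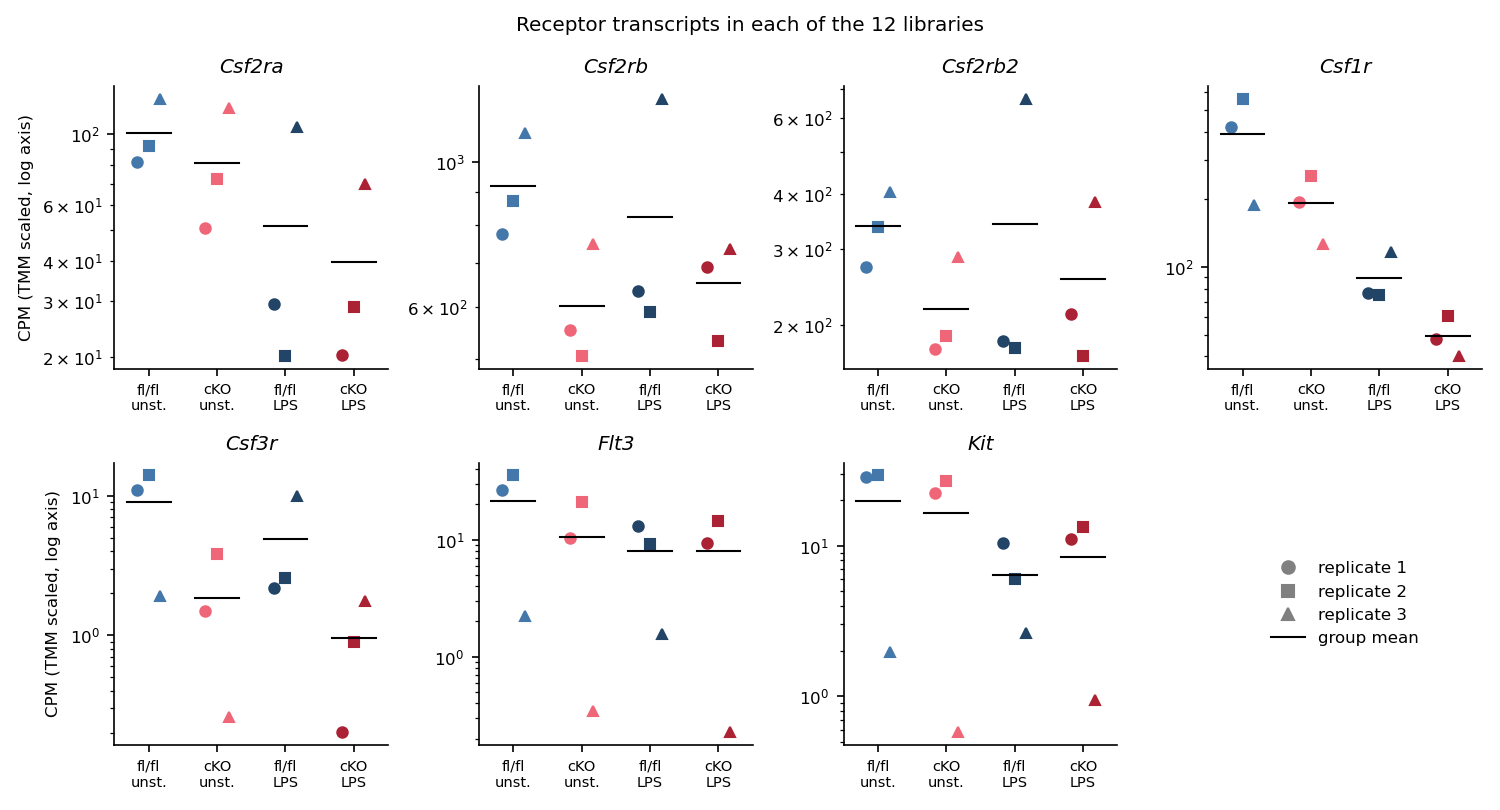
TMM-scaled CPM (log axis) of each receptor gene in the 12 libraries, with 1 symbol per replicate number and a line at the mean of each group (n = 3). Csf1r lies lower with LPS than without in either genotype, and the triangles of replicate 3 lie below the other replicates for Flt3 and Kit and above them for Csf2ra, Csf2rb and Csf2rb2 in all 4 groups.

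All 7 receptor genes were tested in 5 comparisons with edgeR across all genes that passed a filter on low counts, and adjusted p-values below 0.05 were called. In unstimulated cells, where 0% of 12876 genes were called lower in cKO than in CD18fl/fl, none of the 7 was called either. At an unadjusted p under 0.05, 764 genes were lower and 1395 higher in unstimulated cKO cells, none of which was a receptor gene, and DESeq2 called 45 lower and 485 higher, again without a receptor gene. With LPS, 0% of 12441 genes were called lower in cKO cells, with 442 lower and 770 higher at an unadjusted p under 0.05, and DESeq2 called 10 lower and 130 higher. Csf1r and Csf3r were the receptor genes among the 442. The replicate numbers were taken to pair the samples, which the labels do not state. A block for them raised the calls to 8.16% lower and 12.1% higher among all genes in unstimulated cells, and to 3.16% lower and 6.98% higher with LPS. In this fit 5 of 7 receptor genes were called lower in unstimulated cKO cells (Csf1r, Csf2rb, Csf2rb2, Csf3r and Flt3), and 1 of 7 (Csf3r) with LPS. The median log2 fold change of the 7 genes was -0.59 with the block in unstimulated cells, compared with -0.07 over all genes, and -0.29 compared with -0.09 with LPS.

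In each of the 3 same-numbered pairs of unstimulated cultures, every one of the 7 genes had fewer CPM in cKO than in CD18fl/fl cells. Of all genes tested, 33.9% were lower in all 3 pairs. With LPS this applied to 2 of 7 genes (Csf1r and Csf3r) beside 26.1% of all genes. Groups that did not overlap at all, irrespective of the pairing, were seen for Csf2rb in unstimulated cells (13.1% of all genes in this direction) and for Csf1r and Csf3r with LPS (8.09%). The scaling of the libraries bears on the size of these differences, since the TMM factor of the CD18fl/fl library was the higher one in each same-numbered pair of either state. With library size alone, 51.4% of all genes were lower in cKO cells in all 3 unstimulated pairs (7 of 7 receptor genes) and 43.4% in all 3 LPS-treated pairs (4 of 7). When only the library size was used, the median over all genes moved from -0.05 to -0.44 in unstimulated cells and from -0.11 to -0.37 with LPS, and the blocked fit then called 701 genes higher and 3882 lower in unstimulated cells, compared with 1555 and 1051 after TMM. With LPS these counts were 590 and 2052, compared with 869 and 393 after TMM. Relative to the median of all genes, unstimulated Csf1r amounted to -0.94, Csf2rb to -0.49, Csf2rb2 to -0.52 and Csf3r to -2.21 on the log2 scale with library size alone.

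Which receptor genes were called depended on the fit. DESeq2 with the block called the same 5 genes lower in unstimulated cKO cells as edgeR with the block (10.5% of all genes lower), Csf1r and Csf3r with LPS (5.45%), Csf1r, Csf2ra and Flt3 for LPS in CD18fl/fl (10.8%) and Csf1r and Csf2ra for LPS in cKO cells (11.8%). The edgeR fit with the block and an offset for transcript length called Csf1r, Csf3r and Flt3 lower in unstimulated cKO cells (3.9%) but neither β chain gene, Csf3r with LPS (1.78%), Csf1r for LPS in CD18fl/fl (6.29%) and Csf1r and Csf2ra for LPS in cKO cells (8.99%). With library size alone and the block, all 7 were called lower in unstimulated cKO cells beside 30.1% of all genes, Csf1r and Csf3r with LPS beside 16.5%, Csf1r for LPS in CD18fl/fl beside 8.98%, and Csf1r and Csf2ra for LPS in cKO cells beside 14.7%.

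**Figure D2:**
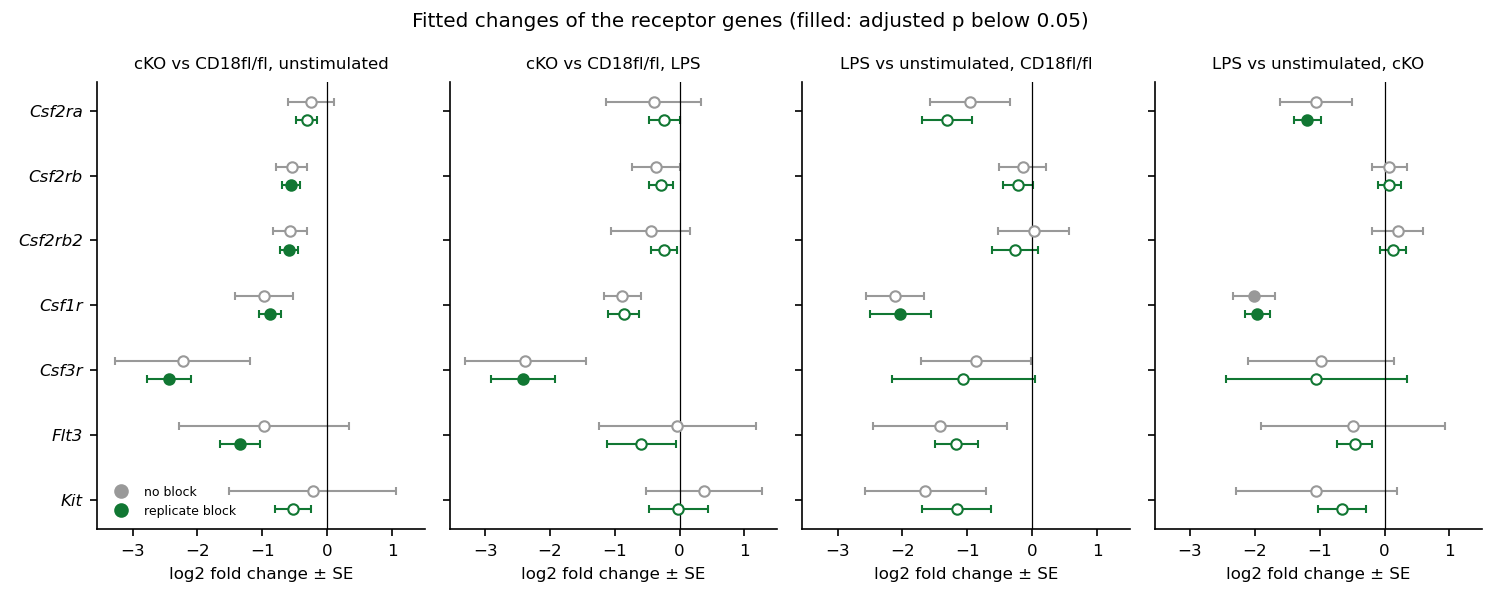
Log2 fold changes with their standard errors for the receptor genes in the comparisons of genotypes and of LPS with unstimulated cells (6 libraries each), fitted without (grey) and with (green) the replicate number as a block. Filled symbols mark adjusted p-values below 0.05, which with the block concern 5 genes between unstimulated genotypes, Csf3r between genotypes with LPS, Csf1r for LPS in CD18fl/fl and Csf1r and Csf2ra for LPS in cKO cells, and without it only Csf1r for LPS in cKO cells.

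For LPS, 1.83% of 12744 genes were called lower and 2.06% higher in CD18fl/fl cells without the block, and none of the receptor genes was called. In cKO cells 1.76% of 12687 genes were called lower and 2.23% higher, including Csf1r as 1 of 7 receptor genes. With the block, the called shares were 6.43% lower and 6.33% higher in CD18fl/fl cells and 9.93% lower and 10.2% higher in cKO cells, and included Csf1r in CD18fl/fl and Csf1r and Csf2ra in cKO cells. Library size alone gave 476 higher and 1145 lower genes with the block in CD18fl/fl cells, compared with 807 and 820 after TMM, and 884 and 1864 in cKO cells, compared with 1300 and 1260. Of the 7 receptor genes 3, Csf1r, Csf2ra and Flt3, had fewer CPM with LPS in all 3 pairs of either genotype, beside 29.2% of all genes in CD18fl/fl and 27.4% in cKO cells. Only the groups of Csf1r did not overlap, which applied to 15.9% and 13.4% of all genes. Without the libraries of replicate 3, with 4 libraries per comparison, 6 of 7 receptor genes were called lower with LPS in CD18fl/fl cells (all but Csf2rb) and 3 of 7 in cKO cells (Csf1r, Csf2ra and Kit), while 2 of 7 (Csf1r and Csf3r) were called lower in unstimulated and none in LPS-treated cKO compared with CD18fl/fl cells. Of all genes, 24.3%, 7.99%, 2.67% and 0.977% were called lower in the same 4 fits. No receptor gene was called for a difference between genotypes in its LPS effect, and 0% of the 13752 genes tested were called for the interaction, without the block or with it (0%). At an unadjusted p under 0.05, 97 genes were found for the interaction without the block and 272 with it, none of them a receptor gene. DESeq2 called 1 gene for the interaction without the block and 130 with it, none of them a receptor gene either.

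The M-CSF receptor gene Csf1r (chr18:61233670-61265221, plus strand) showed the clearest difference with LPS. In unstimulated CD18fl/fl cells it gave 419, 561 and 188 CPM in replicates 1, 2 and 3, and with LPS 76.3, 75.0 and 117 CPM. The unstimulated cKO libraries gave 196, 254 and 126 CPM, and the LPS-treated ones 48.0, 60.2 and 40.3 CPM. Hence every LPS-treated library was below every unstimulated library of its genotype. In cKO cells Csf1r fell by 2.01 ± 0.32 on the log2 scale (SE, adjusted p = 0.0273, edgeR), which corresponds to means of 192 ± 64.2 and 49.5 ± 10.1 CPM (SD, n = 3). Leaving out cKO replicate 1 or 2 of either state ended this call, with adjusted p-values of 0.107 and 0.0951 without the unstimulated and 0.120 and 0.116 without the LPS-treated library. In CD18fl/fl cells the log2 fold change was -2.12 ± 0.45 (adjusted p = 0.0505), and with the block Csf1r fell by 2.03 ± 0.47 (adjusted p = 0.0424). Without the CD18fl/fl unstimulated or the LPS-treated replicate 3, the CD18fl/fl difference was -2.45 (adjusted p = 0.0200) or -2.37 (adjusted p = 0.0218). Without replicate 1 or 2 of either state it was not called. The adjusted p-values were then 0.176 and 0.198 without the unstimulated library, and 0.205 and 0.203 without the LPS-treated one. As bulk RNA was measured, fewer Csf1r-expressing cells and less Csf1r RNA per cell cannot be told apart.

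The summed macrophage markers ranged from 1877 to 2006 CPM in unstimulated CD18fl/fl and from 1624 to 2104 CPM in LPS-treated CD18fl/fl cells, and from 1873 to 2391 CPM and 1251 to 1349 CPM in the cKO counterparts. Within this list C1qa, C1qb, C1qc and Mrc1 were lower in every LPS-treated library than in any unstimulated library of the same genotype. This applied to 15.9% of all genes in CD18fl/fl and 13.4% in cKO cells. Cd14 was higher without overlap, as was Adgre1 (F4/80) in CD18fl/fl cells, beside 13.6% of all genes in CD18fl/fl and 14.8% in cKO cells. The part of these cells in the difference of Csf1r was not tested. Between genotypes, Csf1r was lower in cKO cells in all 3 pairs of either state. In unstimulated cells the ratios of cKO to CD18fl/fl amounted to 0.466, 0.453 and 0.670, and with LPS to 0.629, 0.803 and 0.346. Csf1r differed by -0.97 ± 0.45 on the log2 scale in unstimulated cells (adjusted p = 0.331), and with the block it fell by 0.88 ± 0.17 (adjusted p = 0.0121). With LPS the difference was -0.88 ± 0.28 (adjusted p = 0.433), and the block gave -0.86 ± 0.24 (adjusted p = 0.0630). Other fits with the block called this difference, namely DESeq2 (-0.83, adjusted p = 0.00365) and edgeR with library size alone (-1.12, adjusted p = 0.0248). Among the macrophage markers, Adgre1 and Cd68 were lower in cKO cells in both states without overlap, beside 13.1% of all genes in unstimulated and 8.09% in LPS-treated cells. Adgre1 stood at 216 to 357 CPM compared with 408 to 491 CPM in unstimulated and at 265 to 325 CPM compared with 554 to 641 CPM in LPS-treated cells. C1qb, in contrast, was higher in unstimulated cKO cells (548 to 767 CPM compared with 364 to 404 CPM), beside 11.7% of all genes without overlap in this direction. Their part in the difference of Csf1r between genotypes was not tested. The share of Csf1r reads in introns, 0.548% in unstimulated CD18fl/fl and 2.18% in LPS-treated CD18fl/fl cells, was low in all groups. The GENCODE gene Hmgxb3 overlaps Csf1r on the opposite strand by 2189 bases, and strand use in counting is not stated.

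The α chain of the GM-CSF receptor, Csf2ra (chr19:61212395-61216867, minus strand), gave 81.7, 91.7 and 129 CPM in unstimulated CD18fl/fl cells and 29.3, 20.2 and 105 CPM with LPS. In cKO cells the unstimulated libraries gave 50.9, 72.3 and 120 CPM and the LPS-treated ones 20.3, 28.8 and 70.0 CPM. Replicate 3 was thus highest in each group, and its LPS-treated CD18fl/fl library exceeded unstimulated replicates 1 and 2. In cKO cells Csf2ra fell by 1.19 ± 0.20 with the block (adjusted p = 0.00965), whereas the fit without it gave -1.06 ± 0.55 (adjusted p = 0.324). In CD18fl/fl cells the values were -0.95 ± 0.61 without (adjusted p = 0.382) and -1.31 ± 0.39 with the block (adjusted p = 0.0775), whereas DESeq2 with the block called Csf2ra lower (-1.29, adjusted p = 0.00483). Without the LPS-treated CD18fl/fl replicate 3, the difference in CD18fl/fl cells amounted to -2.02 (adjusted p = 0.00961). With each of the 6 libraries left out in turn, it ranged from -2.02 to -0.57, with adjusted p-values up to 0.708. The genotypes did not differ detectably after TMM scaling, with log2 fold changes of -0.25 ± 0.35 (unstimulated) and -0.40 ± 0.73 (LPS) and adjusted p-values of 0.763 and 0.902 without the block. With the block the values were -0.32 ± 0.16 (adjusted p = 0.205) and -0.24 ± 0.24 (adjusted p = 0.561). A length offset beside the block gave -0.55 (adjusted p = 0.0680) and -0.35 (adjusted p = 0.454). With library size alone and the block, Csf2ra was called lower in unstimulated cKO cells (-0.71, adjusted p = 0.0188). In GENCODE the lncRNA gene Gm56644 spans all of Csf2ra on the opposite strand. GENCODE lets Csf2ra end at 61216892, beyond the end in the deposited tables from which the loci here are taken, and the overlap is 4498 bases long by that annotation, so that reads of the pair cannot be told apart if strand was not used in counting.

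The common β chain Csf2rb (chr15:78209952-78238047, plus strand) was not detectably affected by LPS. It gave 775, 869 and 1108 CPM in unstimulated and 634, 589 and 1247 CPM in LPS-treated CD18fl/fl cells, and 553, 505 and 749 CPM in unstimulated and 691, 533 and 736 CPM in LPS-treated cKO cells. The log2 fold changes for LPS were -0.15 ± 0.36 in CD18fl/fl (adjusted p = 0.839) and 0.07 ± 0.27 in cKO cells (adjusted p = 0.914). In unstimulated cells the highest cKO library, with 749 CPM, was still below the lowest CD18fl/fl library, with 775 CPM. The difference of -0.55 ± 0.24 had an adjusted p of 0.310 without the block, and with it Csf2rb fell by 0.55 ± 0.14 in cKO cells (adjusted p = 0.0327). The length offset with the block ended this call (-0.32, adjusted p = 0.199), as did replicates 1 and 2 alone (-0.58, adjusted p = 0.0736). With LPS the genotypes overlapped, and the difference was -0.36 ± 0.37 (adjusted p = 0.808).

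The values of Csf2rb2 (chr15:78166707-78189921, minus strand) ran parallel to those of Csf2rb. Unstimulated CD18fl/fl cells gave 272, 336 and 406 CPM, and LPS-treated ones 184, 178 and 664 CPM. Unstimulated cKO cells gave 177, 189 and 288 CPM, and LPS-treated ones 213, 170 and 384 CPM. Replicate 3 was highest in each group, most of all in LPS-treated CD18fl/fl cells, where it exceeded the mean of the other replicates 3.68-fold. In unstimulated cells the difference between genotypes was -0.57 ± 0.27 (adjusted p = 0.329), and with the block Csf2rb2 fell by 0.59 ± 0.14 in cKO cells (adjusted p = 0.0256). This call too was lost with the length offset and the block (-0.39, adjusted p = 0.107) and in replicates 1 and 2 alone (-0.68, adjusted p = 0.0609). LPS gave 0.03 ± 0.55 in CD18fl/fl (adjusted p = 0.981) and 0.20 ± 0.39 in cKO cells (adjusted p = 0.823). The sign in CD18fl/fl cells rested on replicate 3, since without its LPS-treated library the difference was -0.90 (adjusted p = 0.0430). Summed as 1 feature, to which the division of reads between them does not contribute, Csf2rb and Csf2rb2 gave -0.55 ± 0.25 in unstimulated cKO cells without the block (adjusted p = 0.315) and fell by 0.56 ± 0.14 with it (adjusted p = 0.0331). With LPS the sum differed between genotypes by -0.39 ± 0.43 (adjusted p = 0.827) and, with the block, -0.28 ± 0.19 (adjusted p = 0.385). LPS itself gave -0.10 ± 0.41 in CD18fl/fl (adjusted p = 0.910) and 0.11 ± 0.30 in cKO cells (adjusted p = 0.882), and -0.22 ± 0.26 (adjusted p = 0.588) and 0.10 ± 0.17 (adjusted p = 0.729) with the block. The lncRNA gene Gm62349 overlaps Csf2rb2 on the opposite strand by 21533 bases in GENCODE.

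Ratios within a library are free of scaling between libraries, but not of differences between libraries that depend on transcript length. Csf2ra has 1860 and Csf2rb 5228 exon bases. Between unstimulated genotypes with the block, a length offset moved Csf2ra from -0.32 to -0.55 and Csf2rb from -0.55 to -0.32. Per length, Csf2rb exceeded Csf2ra 3.27 ± 0.182-fold (SD, n = 3) in unstimulated CD18fl/fl cells and 7.42 ± 3.08-fold with LPS. In cKO cells the ratio was 2.86 ± 0.887 unstimulated and 7.47 ± 4.24 with LPS. It was higher with LPS in all 3 pairs of either genotype, and the exact permutation test (two-sided) gave p = 0.1 in CD18fl/fl, the smallest value that 3 against 3 samples allow, and p = 0.2 in cKO cells. The ratio did not separate the genotypes by the same exact test (p = 0.4 unstimulated and p = 0.9 with LPS). The ratio of Csf2rb2 to Csf2rb was 0.406 ± 0.0194 in unstimulated CD18fl/fl and 0.396 ± 0.0383 in unstimulated cKO cells. With LPS, it stood at 0.319 and 0.333 in CD18fl/fl replicates 1 and 2, but at 0.587 in replicate 3, and the cKO libraries split in the same manner (0.340, 0.352 and 0.575). Csf1r amounted to 0.474 ± 0.262 of Csf2rb in unstimulated CD18fl/fl and to 0.119 ± 0.0188 with LPS, and to 0.358 ± 0.176 and 0.0830 ± 0.0318 in cKO cells (exact permutation p = 0.1 for LPS in both genotypes). In all, 5 ratios were tested in 4 comparisons, and none could pass a threshold of 0.05 in this design (smallest Benjamini-Hochberg adjusted p = 0.333).

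**Figure D3:**
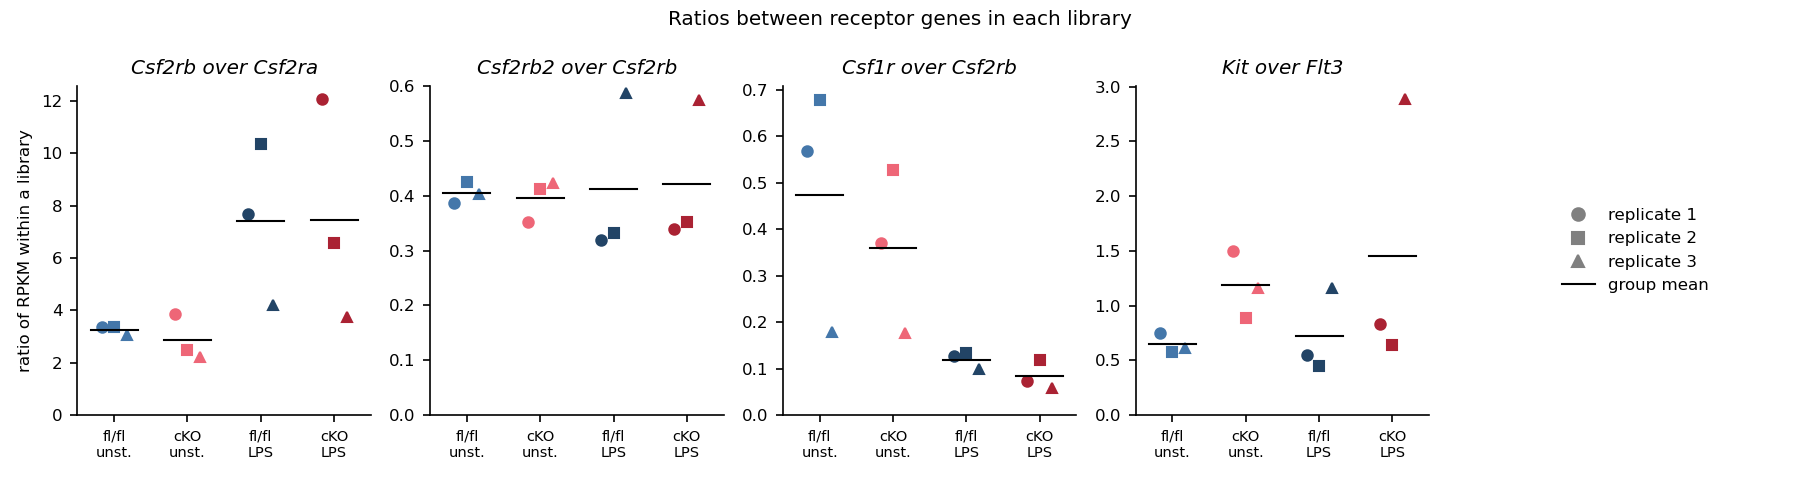
Ratios of RPKM between receptor genes within each library (linear axes from 0), with 1 symbol per replicate number and a line at the mean of each group (n = 3). The ratio of Csf2rb to Csf2ra is higher with LPS in each pair, that of Csf1r to Csf2rb is lower, and Csf2rb2 to Csf2rb stays between 0.319 and 0.426 except for the LPS-treated libraries of replicate 3.

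The G-CSF receptor gene Csf3r (chr4:125918343-125938233, plus strand) gave the largest fold difference between genotypes among the 7 genes, at low counts. Unstimulated CD18fl/fl libraries held 397, 556 and 72 reads, or 11.0, 13.9 and 1.92 CPM, and unstimulated cKO libraries 42, 114 and 9 reads, or 1.49, 3.80 and 0.260 CPM. With LPS the CD18fl/fl libraries gave 2.18, 2.57 and 9.94 CPM and the cKO libraries 0.203, 0.898 and 1.75 CPM, the lowest of which rests on 5 reads. Replicate 3 was the lowest library of either genotype without LPS and the highest with it. In same-numbered pairs Csf3r was 7.37-, 3.67- and 7.39-fold lower in unstimulated cKO cells, and 10.8-, 2.86- and 5.68-fold lower with LPS. The log2 difference was -2.23 ± 1.04 in unstimulated cells (adjusted p = 0.332), and with the block Csf3r fell by 2.44 ± 0.34 (adjusted p = 0.00471). With LPS it was -2.38 ± 0.94 (adjusted p = 0.493), and with the block Csf3r fell by 2.42 ± 0.49 (adjusted p = 0.0271), a call that was lost in replicates 1 and 2 alone (-2.14, adjusted p = 0.165). LPS itself gave -0.86 ± 0.85 in CD18fl/fl and -0.98 ± 1.12 in cKO cells, with adjusted p-values of 0.572 and 0.676.

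As Csf3r is known from neutrophils, the levels of the neutrophil list stand beside it. Its 10 genes summed to 1707, 512 and 157 CPM in unstimulated CD18fl/fl replicates 1, 2 and 3, and to 335, 442 and 108 CPM in the cKO counterparts. With LPS the sums were 79.8 to 98.0 CPM in CD18fl/fl and 61.0 to 112 CPM in cKO cells. Mmp8 alone contributed 399 of the 512 CPM in unstimulated CD18fl/fl replicate 2, and 36.7 to 86.0 CPM to the sums with LPS. S100a8 and S100a9, which are strongly expressed in neutrophils and also found in monocytes, were at 439 and 523 CPM in unstimulated CD18fl/fl replicate 1 and at 37.4 and 48.2 CPM in replicate 2. Ly6g was at 0 in 5 and Cxcr2 in 5 of 12 libraries, and Elane and Retnlg in 7 each. The part of neutrophil RNA in the Csf3r differences was not tested in either state.

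Flt3 and Kit, both receptors of early progenitors, were set apart mainly by the replicate number. Flt3 (chr5:147267551-147337299, minus strand) gave 26.4, 35.5 and 2.25 CPM in unstimulated CD18fl/fl cells and 10.4, 21.0 and 0.347 CPM in unstimulated cKO cells. With LPS, it gave 13.2, 9.22 and 1.58 CPM in CD18fl/fl and 9.28, 14.5 and 0.227 CPM in cKO cells. The mean of replicates 1 and 2 exceeded replicate 3 by 13.8-fold in unstimulated and 7.11-fold in LPS-treated CD18fl/fl cells, and by 45.3- and 52.5-fold in cKO cells, where replicate 3 held 12 and 7 reads. In unstimulated cells Flt3 fell by 1.34 ± 0.30 in cKO cells with the block (adjusted p = 0.0226), compared with -0.97 ± 1.31 without it (adjusted p = 0.755). With LPS the genotypes differed by -0.03 ± 1.21 (adjusted p = 0.994), as replicate 2 was higher and the other two lower in cKO cells. In replicates 1 and 2 alone the unstimulated difference was not called (-0.92, adjusted p = 0.130). LPS gave -1.42 ± 1.03 in CD18fl/fl (adjusted p = 0.437) and -0.49 ± 1.42 in cKO cells (adjusted p = 0.886). With the block Flt3 gave -1.17 ± 0.33 in CD18fl/fl cells (adjusted p = 0.0699), and DESeq2 with the block called it lower there (-1.14, adjusted p = 0.0192).

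Kit (chr5:75735576-75817382, plus strand) followed Flt3 closely. It gave 28.4, 29.3 and 1.98 CPM in unstimulated CD18fl/fl and 22.3, 26.9 and 0.578 CPM in unstimulated cKO cells. The LPS-treated libraries gave 10.4, 5.99 and 2.62 CPM in CD18fl/fl and 11.1, 13.3 and 0.939 CPM in cKO cells. None of the comparisons of Kit passed the threshold after TMM scaling of all replicates, with or without the block, whereas with library size alone and the block Kit fell by 0.94 in unstimulated cKO cells (adjusted p = 0.0365). The log2 fold changes without it were -0.22 ± 1.29 and 0.38 ± 0.89 for the genotypes (adjusted p = 0.953 and 0.925), and -1.65 ± 0.93 and -1.05 ± 1.23 for LPS in CD18fl/fl and cKO cells (adjusted p = 0.328 and 0.685). In replicates 1 and 2 alone Kit fell by 1.81 with LPS in CD18fl/fl (adjusted p = 0.000131) and by 1.11 in cKO cells (adjusted p = 0.0323), whereas in replicate 3 it was higher with LPS in both genotypes. Per length, the ratio of Kit to Flt3 was higher in cKO than in CD18fl/fl cells in all 3 pairs of either state, with 1.18 ± 0.305 compared with 0.646 ± 0.0912 in unstimulated (exact permutation p = 0.1) and 1.45 ± 1.24 compared with 0.720 ± 0.382 in LPS-treated cells (exact permutation p = 0.4). The LPS-treated cKO ratios were 0.836, 0.640 and 2.88 in replicates 1, 2 and 3. In cKO replicate 3 they rest on 29 Kit and 7 Flt3 reads with LPS, and on 20 and 12 without. Across the 12 libraries Flt3 and Kit had a Pearson r of 0.96 of log2 CPM, and of 0.97 after subtraction of the group means. These libraries share replicate numbers, and the correlation is a description.

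Markers of other cells that carry KIT differed by replicate number too. The 10 mast cell and basophil genes summed to 12.1 to 23.4 CPM in all libraries of replicates 1 and 2 and to 93.3 to 183 CPM in replicate 3, where Kit was lowest. Cpa3, Hdc and Gata2 made up most of these sums, whereas Mcpt4 was at 0 in all 12 libraries, Cma1 in 11 and Tpsb2 in 8, and Fcer1a did not exceed 0.900 CPM. The progenitor list, led by Cd34, summed to 48.9, 41.8 and 41.7 CPM in unstimulated CD18fl/fl replicates 1, 2 and 3. The unstimulated cKO counterparts gave 45.2, 31.1 and 96.1 CPM. With LPS the sums were 15.7, 14.1 and 23.4 CPM in CD18fl/fl and 11.5, 8.85 and 46.0 CPM in cKO cells. Replicate 3 thus held the highest progenitor sum of each group except unstimulated CD18fl/fl cells. Of this list, Mpo and Hoxa9 stayed below 1 CPM in every library. Sox4, in contrast to the sum, was lower in replicate 3, at 0.259 to 2.54 CPM, than in replicates 1 and 2, at 3.53 to 29.2 CPM. The plasmacytoid DC list, dominated by Bst2, reached 258 to 408 CPM without and 857 to 1248 CPM with LPS, while Siglech was at 0 in 8 libraries. The 10 DC markers summed to 16284.9 to 22837.3 CPM in replicate 3 and to 25818.5 to 47621.2 CPM in replicates 1 and 2. Of this list, Ccr7 and Dpp4 were lower in replicate 3 of each group as well. Ccr7 stood at 200 to 1238 CPM there, compared with 1309 to 2823 CPM in replicates 1 and 2. Itgax (CD11c) ranged from 30.8 to 680 CPM over the 12 libraries. Values by replicate of Itgax and the remaining DC markers are not given here. The part of these cells in the levels of Kit and Flt3 was not tested.

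**Figure D4:**
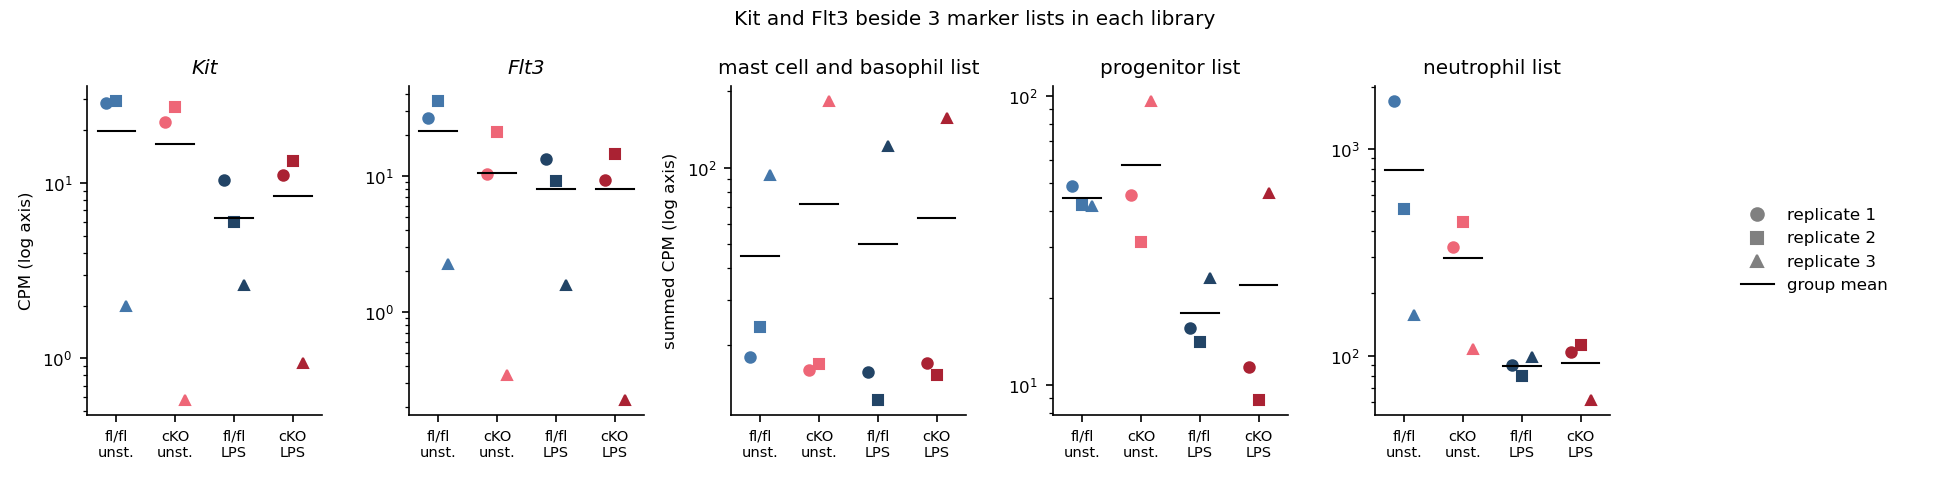
CPM of Kit and Flt3 and summed CPM of 3 lists of marker genes (log axes) in the 12 libraries, with 1 symbol per replicate number and a line at the mean of each group (n = 3). Kit and Flt3 are lowest in replicate 3 of each group, the mast cell and basophil list is highest there (93.3 to 183 CPM), and the neutrophil list peaks at 1707 CPM in unstimulated CD18fl/fl replicate 1.

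Csf2ra, Csf2rb and Csf2rb2 deviated in the opposite direction in replicate 3 of each group. Csf1r, in contrast, was below the mean of the other replicates there in 3 of 4 groups, and Csf3r was lower in both unstimulated and higher in both LPS-treated groups. After subtraction of the group means, Csf2ra correlated with Csf2rb2 (r = 0.94) and Csf2rb (r = 0.83), and Flt3 correlated inversely with Csf2ra (r = -0.78), Csf2rb (r = -0.75) and Csf2rb2 (r = -0.76), over the same 12 libraries. Csf1r deviated with Csf3r (r = 0.77) and Kit (r = 0.73). The genes with the most similar pattern of log2 CPM over the 12 libraries were Itgb5 (r = 0.98) and Fos (0.98) for Csf1r, Trp53 (0.98) and Poli (0.98) for Csf2ra, Mapk7 (0.97) and Igsf8 (0.97) for Csf2rb, and Prrc2b (0.97) and Gon4l (0.97) for Csf2rb2. For Csf3r they were Trappc9 (0.95) and Frmd4a (0.95), for Flt3 Efnb2 (0.98) and Ypel3 (0.97), and for Kit Tmod2 (0.98) and Ndnf (0.98).

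Transcripts of the ligands were scarce, and 3 of 8 (Csf1, Flt3l and Kitl) passed the filter in the pairwise comparisons. Of 8 ligand genes, Il3 had no reads in any library, Il34, Il5 and Csf3 were at or below 1.55 CPM, and Csf2, which encodes the GM-CSF supplied to the culture, did not exceed 0.527 CPM. Csf1, the gene of M-CSF, was the only ligand with more than 10 CPM, at 12.1 to 43.4 CPM in unstimulated CD18fl/fl and 5.45 to 31.2 CPM in unstimulated cKO cells. Csf1 was highest in replicate 3 of each group, and with the block it fell by 0.70 ± 0.19 in unstimulated cKO cells (adjusted p = 0.0388), compared with -0.54 ± 0.74 (adjusted p = 0.757) without it. Flt3l reached 1.82 to 6.72 CPM without and 0.0372 to 2.36 CPM with LPS, and Kitl was at most 1.12 CPM. Neither Flt3l nor Kitl passed the threshold in any comparison. Among the related receptors, Il3ra, the α chain that pairs with the β chains for IL-3, ranged from 10.5 to 27.5 CPM in all libraries, and Il5ra from 0.241 to 4.50 CPM. Pdgfra was at 0 in 11 of 12 libraries, and Pdgfrb did not exceed 1.19 CPM. In none of the comparisons was a related receptor called.

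Downstream of the receptors, 23 genes of signal transduction were examined. The counts of this and the following lists stand beside these shares of all genes. Without the block, LPS gave 1.83% lower and 2.06% higher in CD18fl/fl and 1.76% and 2.23% in cKO cells. With the block these were 6.43% and 6.33%, and 9.93% and 10.2%. Between genotypes the block gave 8.16% lower and 12.1% higher in unstimulated and 3.16% and 6.98% in LPS-treated cells. Without the block 1 of 23 was called lower and none higher with LPS in CD18fl/fl cells, and 2 higher (among them Pik3r1, named after its values were seen) and none lower in cKO cells. In CD18fl/fl cells the tyrosine kinase gene Fes fell by 1.33 ± 0.27 (adjusted p = 0.0482). Stat5a and Stat5b, whose products transmit GM-CSF signals, gave 2.20 ± 0.50 and 1.12 ± 0.29 (adjusted p = 0.0607 and 0.0834), Akt1 -1.02 ± 0.22 (0.0511) and Plcg2 -1.63 ± 0.46 (0.0962). With the block, 4 of 23 were called higher in CD18fl/fl cells (among them Stat5a, Stat5b and Pik3r1) and 4 lower (Fes, Akt1, Plcg2 and Pik3cd, also named after its values were seen), and 7 higher and 6 lower in cKO cells. Unstimulated cKO cells had 4 of 23 called lower with the block, among them Jak1 (by 0.60 ± 0.14), Stat3 (by 0.53 ± 0.14) and Stat5b (by 0.53 ± 0.14), whereas Tyrobp, an adaptor of myeloid receptors, was 0.88 ± 0.17 higher (adjusted p = 0.0127). With LPS, 2 of 23 were called lower in cKO cells with the block, among them Mapk3 (by 0.74 ± 0.13).

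Of 19 genes of negative regulators and receptor shedding, 2 were called lower with LPS in either genotype without the block, namely the adaptor genes Dok2 and Dok3. In CD18fl/fl cells they fell by 2.94 ± 0.32 (adjusted p = 0.0138) and 2.43 ± 0.29 (adjusted p = 0.0160). Adam10, a sheddase, gave -1.07 ± 0.29 (adjusted p = 0.0883), Dok1 1.83 ± 0.55 (0.111), Cblb, a ubiquitin ligase, 1.21 ± 0.47 (0.180), and the STAT5 target Socs2 0.64 ± 0.31 (0.261). With the block, 2 of 19 were called higher in CD18fl/fl cells, Dok1 (by 1.66 ± 0.29, adjusted p = 0.0203) and Cblb (by 1.22 ± 0.20, adjusted p = 0.0185), and 4 lower, Dok2, Dok3, Inpp5d (by 1.46 ± 0.26, adjusted p = 0.0209) and Dusp6 (by 3.15 ± 0.51, adjusted p = 0.0165). In cKO cells the blocked fit called 3 higher and 5 lower with LPS, beside 10.2% and 9.93% of all genes. In unstimulated cKO cells 7 of 19 were called lower and 1 higher with the block, beside 8.16% and 12.1% of all genes. The largest difference was that of Dusp6, an ERK phosphatase (lower by 1.02 ± 0.14, adjusted p = 0.00455), followed by Socs3 (by 0.87 ± 0.18) and Inpp5d, which encodes SHIP1 (by 0.69 ± 0.15). Dok2 was 0.67 ± 0.16 higher (adjusted p = 0.0277). With LPS none of the 19 was called between genotypes. At the level of values, Socs3 gave 146, 92.0, 422 and 268 CPM in the replicate 3 of unstimulated CD18fl/fl and cKO and LPS-treated CD18fl/fl and cKO cells, while all other libraries lay between 9.60 and 24.5 CPM.

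Among the 8 response genes of STAT5 and GM-CSF, none was called for LPS without the block. Ccl17, a chemokine gene of DCs, gave 4.24 ± 1.39 (adjusted p = 0.132) in CD18fl/fl cells, Ccl22 1.97 ± 0.70 (0.155), Pim1 0.62 ± 0.22 (0.160), Pparg -3.41 ± 0.93 (0.0916) and Myc -1.64 ± 1.39 (0.510). With the block, 3 of 8 were called in CD18fl/fl cells. Ccl17 rose by 3.32 ± 0.65 (adjusted p = 0.0281), the cyclin gene Ccnd2, named after its values were seen, rose by 2.14 ± 0.27 (adjusted p = 0.00866), and Pparg fell by 3.03 ± 0.67 (adjusted p = 0.0372). In cKO cells 3 of 8 were called higher and 2 lower with LPS in the blocked fit, beside 10.2% and 9.93% of all genes. Between genotypes, Ccl17 was higher in cKO than in CD18fl/fl cells in all 3 pairs of either state. It ranged from 125 to 2402 CPM in unstimulated cKO and from 13.9 to 102 CPM in unstimulated CD18fl/fl cells, and with the block it rose by 3.71 ± 0.30 (adjusted p = 0.00298), and with LPS by 1.82 ± 0.21 (adjusted p = 0.00663). Osm, the gene of oncostatin M, fell by 0.68 ± 0.18 in unstimulated cKO cells with the block (adjusted p = 0.0346).

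Of 22 genes of transcription factors that act on receptor genes or define the lineages, 21 passed the filter. In CD18fl/fl cells 3 of 21 were called lower with LPS without the block and none higher. Those called lower included Klf4, which fell by 2.45 ± 0.28 (adjusted p = 0.0144), and Cebpa, which fell by 2.08 ± 0.32 (adjusted p = 0.0224). Gfi1 gave 3.04 ± 1.13 (0.168), Ets2 0.69 ± 0.27 (0.179) and Id2 0.79 ± 0.32 (0.189). With the block, 2 of 21 were called higher with LPS in CD18fl/fl cells, Irf8, a factor of DCs and monocytes named after its values were seen (by 1.66 ± 0.20, adjusted p = 0.00772), and Batf3 (by 1.20 ± 0.21, adjusted p = 0.0197), and 4 lower, among them Cebpd (by 2.25 ± 0.32, adjusted p = 0.0121). The counts in cKO cells were 4 higher and 7 lower, beside 10.2% and 9.93% of all genes. In unstimulated cKO cells 7 of 21 were called lower with the block, beside 8.16% of all genes. Among them were Cebpa (by 0.88 ± 0.16, adjusted p = 0.0102), Cebpb (by 1.10 ± 0.23, adjusted p = 0.0187) and Cebpd (by 1.02 ± 0.21, adjusted p = 0.0162), which encode C/EBP factors. The value of Cebpe, a further C/EBP gene on this list, is not given here. Batf3, a factor of conventional DCs, was called higher in cKO cells in both states, by 0.72 ± 0.16 (adjusted p = 0.0215) and 0.94 ± 0.19 (adjusted p = 0.0263). Spi1, which encodes PU.1, ranged from 105 to 239 CPM and was not called between genotypes in either state.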

How the data were processed

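The deposited tables (1 per library) held gene read counts and TPM values, which the authors made with CLC Genomics Workbench 22.0 from 59-base single-end reads of poly(A) libraries amplified in 15 PCR cycles without molecular identifiers, so that the floor of 3 reads covers counting error only. Per the labels the build was GRCm38, whereas the methods name GRCm39, which the coordinates of the tables match. Total gene read counts were tested with edgeR 4.0.16 (quasi-likelihood test, TMM, filterByExpr with a minimum count of 10, Benjamini-Hochberg adjustment over all genes, threshold 0.05), using the 6 libraries of each pairwise comparison and all 12 for the interaction. CPM and RPKM were computed from the counts, and the deposited TPM values were not tested. SEs were derived from the F statistic, and fold changes are log2. DESeq2 1.42.0, other scalings, filters and left-out libraries served as alternatives. Deviations of same-numbered samples from their group means correlated with r = 0.265 to 0.716, and the replicate numbers were taken to pair the samples. This check cannot tell pairing from a shift shared by replicate 3. Such a shift alone moves replicates 1 and 2 of each group to the same side of its mean. Differently numbered samples were not compared. The fits were also run on simulated data, the outcome of which is not reported here. Named from each list were up to 3 genes per direction with the smallest adjusted p for LPS in CD18fl/fl cells and up to 3 per direction and state called between genotypes, and for each receptor the 2 genes with the highest r. The genes, lists and tests were chosen with earlier results of these data known. Results of some genes on these lists are not reported here.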

Additional observations from a re-analysis of the deposited data

How the results depend on the processing

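Of 7 receptor genes, edgeR without a block called 0, 0, 0 and 1 for the genotypes (unstimulated, LPS) and for LPS (CD18fl/fl, cKO). The replicate block gave 5, 1, 1 and 2, the block with a length offset 3, 1, 1 and 2, DESeq2 with the block 5, 2, 3 and 2, and library size with the block (chosen after seeing the data) 7, 2, 1 and 2. Replicates 1 and 2 alone gave 2, 0, 6 and 3. In CD18fl/fl cells 1 gene, Csf1r, was called for LPS by DESeq2, all 12 libraries, library size alone, no filter, a minimum count of 50 or unique reads. Leaving out 1 library gave 0 to 0, 0 to 0, 0 to 3 and 0 to 1 calls. No setting called a receptor gene for the interaction. Of the log2 fold changes of the 7 genes, 554 kept direction and side of the threshold, 54 gained a call, 4 lost it and 62 turned direction.
Between genotypes with LPS, Kit turned to -0.018 with the block, -0.018 with DESeq2 and block and -0.27 with library size and block, and in replicates 1 and 2 alone Csf2rb2 gave 0.050 and Flt3 0.049. For LPS in CD18fl/fl cells Csf2rb2 gave -0.20 (library size), -0.26 (block), -0.072 (block and length), -0.23 (DESeq2 and block), -0.75 (replicates 1 and 2) and -0.59 (library size and block). The sum of Csf2rb and Csf2rb2 gave -0.10 there, which is counted as a turn of Csf2rb2 although it is not a value of Csf2rb2 alone. In cKO cells Csf2rb gave -0.14 with library size without and with the block (-0.14), and Csf2rb2 -0.036 (replicates 1 and 2) and -0.082 (library size and block). For the interaction Csf2ra gave 0.13 (block), 0.16 (block and length), 0.071 (DESeq2 and block), 0.42 (replicates 1 and 2) and 0.18 (library size and block), Csf1r -0.067 (block and length) and -0.0043 (DESeq2 and block), and Csf3r 0.058 (replicates 1 and 2) and 0.069 (library size and block).
Leaving out 1 library turned Kit between unstimulated genotypes (-0.76 to 0.37) and, with LPS, Csf2ra (-1.13 to 0.66), Csf2rb (-0.52 to 0.058), Csf2rb2 (-0.89 to 0.47), Flt3 (-0.80 to 0.53) and Kit (-0.11 to 0.92). For LPS it turned Csf2rb (-0.58 to 0.048) and Csf2rb2 (-0.90 to 0.34) in CD18fl/fl and Csf2rb (-0.069 to 0.27), Csf2rb2 (-0.28 to 0.46), Csf3r (-1.84 to 0.10) and Flt3 (-1.21 to 0.52) in cKO cells, and for the interaction Csf1r (-0.29 to 0.42), Csf2ra (-0.77 to 0.90), Csf2rb2 (-0.21 to 1.04) and Csf3r (-0.88 to 1.00). The causes were not tested. With 5, 7 and 20 reads in their lowest libraries, Csf3r, Flt3 and Kit are limited by depth there.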
